A study of Homo sapiens with 6 samples.

Results

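PI4KA and its pseudogene PI4KAP2 both lie on the minus strand of chromosome 22, and were followed here through their splice junctions. The members are the minus-strand junctions that start and end inside the PI4KA or the PI4KAP2 locus of the hg19 genome build. They number 453 of the 780566 junctions found in the whole series, with 292 in PI4KA and 161 in PI4KAP2. The genes were chosen with measured values in view: a pair of PI4KAP2 acceptors (3′ splice sites) used differently in the 2 groups picked them out. Everything measured at the 5′ splice site of that pair is therefore given as a description, with no test. The other splice sites of both genes were tested, but earlier results of these data were known when the genes were chosen.

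The libraries came from K562, a human chronic myeloid leukaemia cell line. A knock-in of wild-type U2AF1 had been made in the cells of 3 libraries, which serve as controls, and 3 libraries came from cells with U2AF1 S34F, in which a serine of the protein is replaced by phenylalanine. All 6 were prepared from poly(A)-selected RNA and sequenced from both ends. The comparison asks how the choice of splice sites differed between S34F and wild-type cells. The labels do not say whether libraries of a group came from separate clones or cultures, so the p-values measure only the spread between these libraries, which may be technical.

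PI4KA encodes a lipid kinase that phosphorylates phosphatidylinositol, mainly at the plasma membrane, and so supplies the precursor of other signalling phosphoinositides. PI4KAP2 is listed by RefSeq as a transcribed pseudogene, a copy that is transcribed but is not annotated to encode the kinase. U2AF1 is the small subunit of the factor that recognises the AG at the end of an intron, the step by which an acceptor is picked. Acceptors that can be joined to the same 5′ splice site compete, and the share of junction reads that each receives measures the choice.

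Each junction had 2 counts per library, of reads that mapped to 1 place only (unique) and of reads that mapped to several (multi-mapped). The libraries held from 18074706 to 39279169 unique spliced reads, with S34F replicate 3 the deepest and S34F replicate 2 the shallowest. Multi-mapped reads made up 6.57% to 8.08% of all spliced reads. PI4KA junctions held 144675 unique and 22528 multi-mapped reads over the 6 libraries, and those of PI4KAP2 held 40452 and 41603. Of the PI4KAP2 junctions, 78 had multi-mapped reads only. Positions below are the bases of the exons that border a junction, in hg19: the last base of the upstream exon for a 5′ splice site, and the first base of the downstream exon for an acceptor. Whether a junction was annotated is as the deposited tables record it. Exon and intron sequence, and the untranslated regions, were not analysed here.

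At the PI4KAP2 pair, the 5′ splice site at 21846283 was joined either to an annotated acceptor at 21842670 or to an unannotated one at 21842699, which lies 29 nt upstream. In wild type the upstream acceptor received 22, 21 and 8 unique reads and the downstream one 70, 54 and 37, in replicates 1 to 3. In S34F the upstream acceptor received 89, 43 and 155 reads and the downstream one 44, 25 and 82. The unannotated acceptor thus had fewer reads than the annotated one in each wild-type library and more in each S34F library.

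The upstream share of the pair was 23.9%, 28% and 17.8% in wild type against 66.9%, 63.2% and 65.4% in S34F. The 95% Clopper-Pearson intervals of the wild-type libraries reached up to 39.6% and those of the S34F libraries down to 50.7%, so that no interval of one group met one of the other. Such intervals cover counting error within a library only, and not the spread between libraries. They treat reads as separate molecules, which reads without a molecular identifier cannot show, so they may be too narrow. The means were 23.2% ± 5.1 and 65.2% ± 1.9 (SD, n = 3 each). Counted over all acceptors of that 5′ splice site, the upstream share was 19.2% ± 4.9 in wild type and 56.7% ± 5.0 in S34F.

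**Figure D1:**
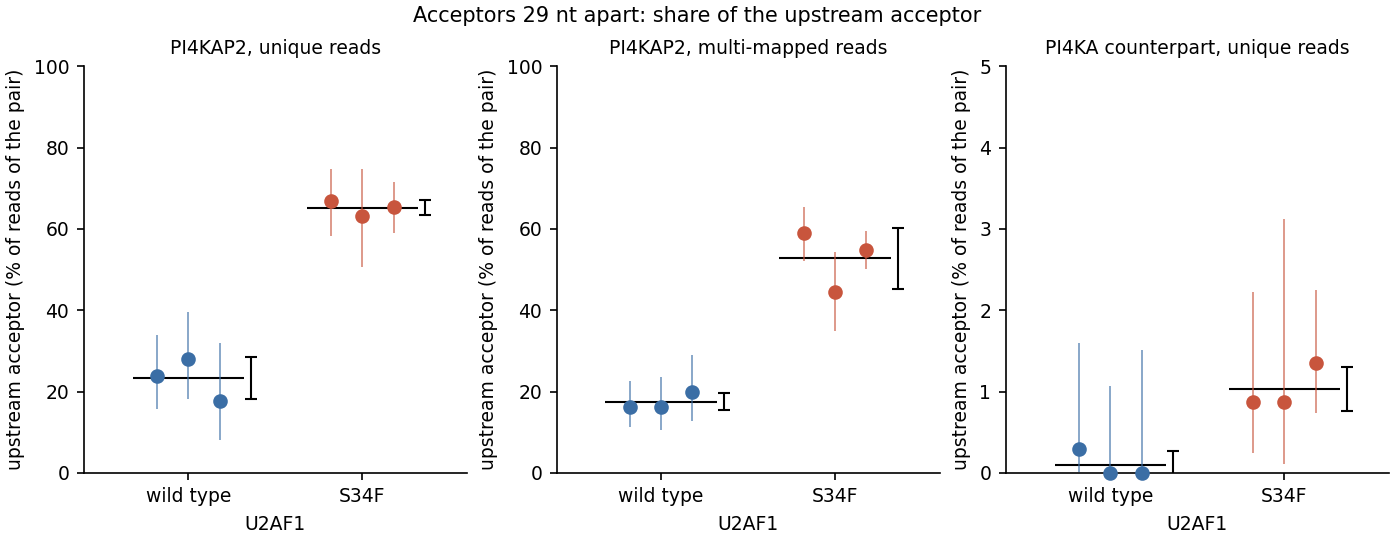
The upstream acceptor's share of the reads of the pair 29 nt apart (y axis, %) is plotted for each library of wild type (blue) and S34F (red), from unique reads of PI4KAP2, multi-mapped reads of PI4KAP2 and unique reads of the PI4KA counterpart, whose axis ends at 5%. Thin lines are 95% Clopper-Pearson intervals, horizontal bars are means and black error bars are SDs (n = 3), cut at 0. The PI4KAP2 groups lie apart in both kinds of read, and the PI4KA share stays at 1.35% or less.

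Further junctions of the same 5′ splice site skipped the next exon or more. The acceptor of the following exon, at 21842312, received 18, 7 and 6 unique reads in wild type against 7, 13 and 24 in S34F, a share of 11.4% ± 3.0 and 9.76% ± 5.5. The acceptor at 21838423, which lies several exons further on, received 10, 2 and 1 reads in wild type against 0, 1 and 8 in S34F. In both cases the libraries of the 2 groups overlapped.

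Multi-mapped reads at this pair split the same way. They numbered 29, 23 and 21 at the upstream acceptor in wild type and 132, 48 and 243 in S34F, against 149, 118 and 84, and 92, 60 and 200, at the downstream one. The upstream share in these reads was 17.5% ± 2.1 in wild type and 52.7% ± 7.5 in S34F. They come from the same libraries and the same chosen splice site and are a description too.

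Another stretch of chromosome 22, apart from both genes, shared these reads. Between bases 20383920 and 20427640 it held 15 annotated introns with at least 60 reads, of which 11 had exactly the length of a PI4KAP2 intron, and 70.6% of its spliced reads were multi-mapped. It also has acceptors 29 nt apart, at 20398723 and 20398694. There the multi-mapped counts were 27, 23 and 21 upstream in wild type against 129, 47 and 241 in S34F, within 3 reads of those at PI4KAP2 in every library. Unique reads at this pair numbered 1 in wild type replicate 1 and 1 in S34F replicate 1. Whether multi-mapped reads arose from PI4KAP2 or from this stretch cannot be told apart, and the values that belong to PI4KAP2 alone are those from unique reads.

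PI4KA has acceptors at the same offset. Its annotated acceptor at 21088841 ends an intron of 7674 nt from the 5′ splice site at 21096516, and an unannotated acceptor lies at 21088870, again 29 nt upstream. The acceptors were taken as counterparts by their place in the genes and their shared offset. The introns differ in length (3612 nt in PI4KAP2), and whether the 5′ splice sites correspond was not tested. The PI4KA upstream acceptor received 1, 0 and 0 unique reads in wild type against 4, 2 and 14 in S34F, beside 345, 344 and 242, and 454, 227 and 1025, at the annotated one. The upstream share was 0.096% ± 0.17 in wild type and 1.03% ± 0.27 in S34F, with no overlap between the groups. In the 2 wild-type libraries with no read the upper 95% limits were 1.07% and 1.51%.

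At that PI4KA pair the log2 odds of the upstream acceptor rose by 3.00 (SE 0.96, adjusted p = 0.0449 in edgeR's quasi-likelihood test over 5684 pairs of competing acceptors). Among the 5684 pairs, 6.53% passed an adjusted p under 0.05, and 2.85% also differed by 10 percentage points or more. The pair met the minimum of 10 upstream reads, the condition for a test, only through the S34F libraries, where the share is high, so the p-value is given beside the counts and supports nothing further. With only 21 upstream reads in all, the result depended on single libraries: leaving out wild type replicate 2 or 3, or S34F replicate 2, gave adjusted p-values of 0.213, 0.13 and 0.0615. Without S34F replicate 3 the pair fell under the minimum of 10 upstream reads. Over all alternatives the log2 odds ran from 2.30 to 4.79 and the adjusted p from 0.0312 to 0.829.

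The same PI4KA 5′ splice site was also joined to acceptors far upstream of the annotated one. The annotated acceptor took 98.0%, 99.1% and 98.4% of its unique reads in wild type against 93.8%, 92.7% and 94.2% in S34F, so that the groups did not overlap. Its share fell by 2.13 on the log2 odds scale (SE 0.48, edgeR adjusted p = 0.0125 over 51522 junctions tested for acceptor usage). Its unannotated junctions together took 7 of 352, 3 of 347 and 4 of 246 reads in wild type and 30 of 484, 18 of 245 and 63 of 1088 in S34F, or 1.49% ± 0.57 and 6.45% ± 0.81.

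Most of those reads went to 1 acceptor. It lies at 21090879, 2038 nt upstream of the annotated one, and received 4, 2 and 3 unique reads in wild type against 21, 10 and 34 in S34F. In wild type it took 0.98% ± 0.35 of the reads, and in S34F 3.85% ± 0.64, a rise of 1.96 in log2 odds (SE 0.55, adjusted p = 0.038 in edgeR). It too reached 10 reads only through the S34F libraries. It can begin an exon of 183 nt, from 21090697 to 21090879, whose annotated 5′ splice site is joined to the acceptor at 21088841. That exit junction received 5, 6 and 4 unique reads in wild type against 6, 6 and 12 in S34F. Of all its reads, 44.3% were multi-mapped, so unique reads give only a part of its count. Its share of the reads at 21088841 did not pass (edgeR adjusted p = 0.952). Tested as a skipped exon, inclusion was 1.40% ± 0.24 in wild type and 2.86% ± 0.61 in S34F, which did not pass (edgeR adjusted p = 0.248). Another acceptor lies at 21089962, 1121 nt upstream, and received 1, 0 and 1 reads in wild type against 4, 5 and 13 in S34F. Its log2 odds difference of 2.33 did not pass (SE 0.87, edgeR adjusted p = 0.121). The acceptor at 21088870 gave an edgeR adjusted p of 0.0859 when set against all others of the 5′ splice site. None of these acceptors had a multi-mapped read.

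The annotated PI4KA acceptor, which differed by less than 10 percentage points, no longer passed without wild type replicate 2, S34F replicate 2 or S34F replicate 3, at adjusted p-values of 0.071, 0.0587 and 0.0773, within a range of 0.00623 to 0.108 over all alternatives. The acceptor at 21090879 passed without wild type replicate 1 (adjusted p = 0.035) and did not pass without any other library, with adjusted p-values from 0.0625 to 0.149.

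**Figure D2:**
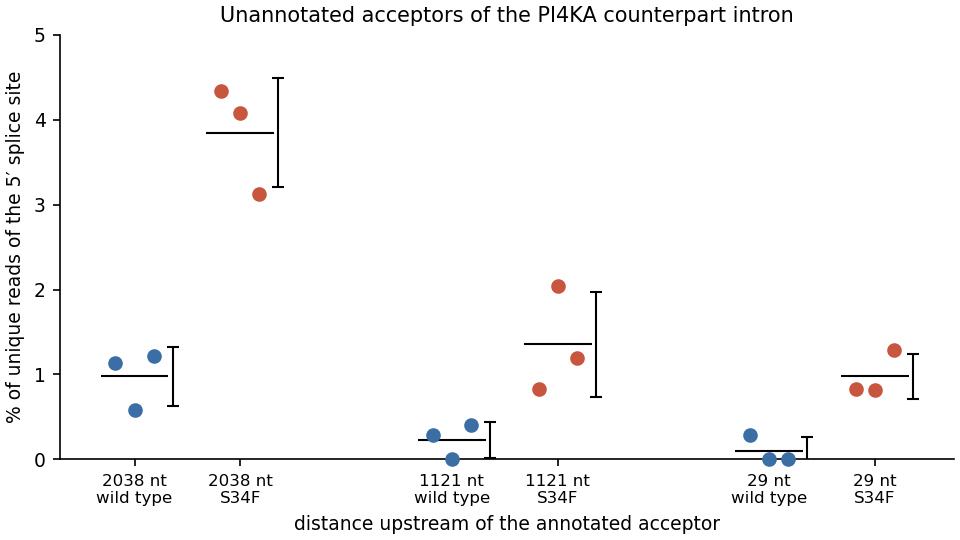
The share of the unique reads of the PI4KA 5′ splice site at each of 3 unannotated acceptors (y axis, %) is plotted by library for wild type (blue) and S34F (red), with means as horizontal bars and SDs as error bars (n = 3), cut at 0. The x axis gives how far each lies upstream of the annotated acceptor. The S34F libraries lie above the wild-type libraries at each, from 0.82% to 4.34% against at most 1.22%.

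A second pair of PI4KAP2 acceptors moved the other way. The 5′ splice site at 21841854 was joined to annotated acceptors at 21841216 and, 48 nt upstream, at 21841264. The upstream one received 28, 25 and 13 unique reads in wild type against 3, 1 and 5 in S34F, and the downstream one 287, 225 and 156, and 397, 153 and 545. The upstream share fell from 8.86% ± 1.2 to 0.77% ± 0.13, and each S34F library, at 0.91% or less, lay below each wild-type library, at 7.69% or more. On the log2 odds scale the share fell by 3.53 (SE 0.47), with an adjusted p of 1.53e-07 in edgeR over the competing pairs. The upstream acceptor reached 10 reads only through the wild-type libraries, where it is high, so the p-value is given beside the counts and supports nothing further.

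This fall passed under all 16 alternatives, with log2 odds from -3.68 to -3.37 and adjusted p-values from 4.85e-09 to 0.0191. These alternatives reuse the same libraries and lend no independent support. Since the share fell by 8.09 percentage points, it did not reach the 10 points required of a call. The level of the upstream junction itself fell by 3.08 on the log2 scale (SE 0.50, edgeR adjusted p = 0.0362 over 116446 junctions), while the downstream junction differed by 0.43 (SE 0.22, adjusted p = 0.41). Without S34F replicate 2 the level of the upstream junction kept an adjusted p of 0.0498, and without any other library it ranged from 0.0621 to 0.207.

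Multi-mapped reads at the second pair gave 9.74% ± 1.4 in wild type and 0.88% ± 0.27 in S34F. The stretch at 20383920 again held nearly the same ones, at 10.2% ± 1.4 and 0.88% ± 0.36. In PI4KA the corresponding upstream acceptor, at 21087434, received 0, 2 and 0 unique reads in wild type and 0 in each S34F library, beside 281 to 440 and 267 to 1111 reads at the annotated acceptor at 21087386. The intron is 637 nt long in both genes, and use of the upstream acceptor in PI4KA was at or near 0 in either group.

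**Figure D3:**
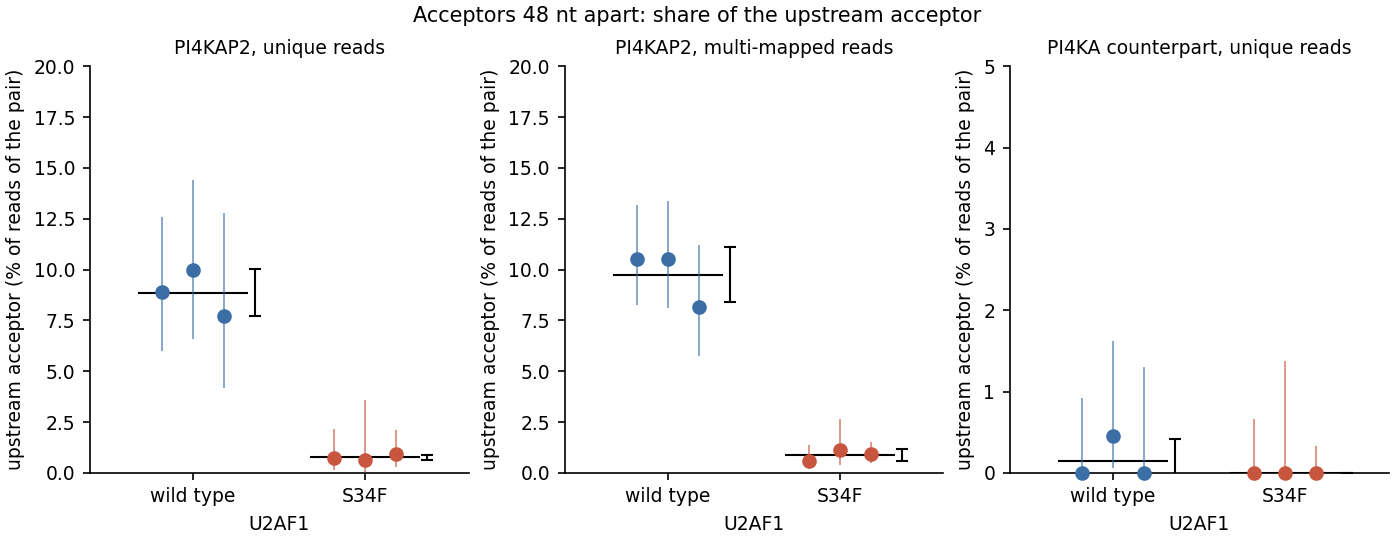
The upstream acceptor's share of the reads of the pair 48 nt apart (y axis, %) is plotted for each library of wild type (blue) and S34F (red), from unique reads of PI4KAP2, multi-mapped reads of PI4KAP2 and unique reads of PI4KA, whose axis ends at 5%. Thin lines are 95% Clopper-Pearson intervals, horizontal bars are means and black error bars are SDs (n = 3), cut at 0. The S34F libraries of PI4KAP2 sit at 0.91% or less in unique reads, below the wild-type libraries at 7.69% to 10%.

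In unique reads, skipping of 2 neighbouring PI4KAP2 exons lay apart between the groups, in opposite directions. The tests of both depended on the setting, as given below. An exon of 121 nt, from 21830933 to 21831053, was skipped by an annotated junction from 21832079 to 21830449. That junction received 83, 111 and 53 unique reads in wild type against 51, 43 and 107 in S34F, while the junctions into the exon received 295, 219 and 156, and 445, 191 and 781. Skipping was 21.8%, 32.6% and 22.7% in wild type against 10.5%, 16.3% and 11.2% in S34F, so that the groups did not overlap. It averaged 25.7% ± 6.0 and 12.7% ± 3.2, and inclusion rose by 1.29 in log2 odds (SE 0.37, edgeR adjusted p = 0.0467 over 19272 cassette exons).

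In multi-mapped reads skipping of that exon was lower and the groups overlapped, at 8.32%, 9.73% and 6.61% in wild type against 4.39%, 7.59% and 5.72% in S34F. The test held 3 overlapping forms of the exon, which share the skipping junction and so are 1 event counted 3 times. The call was lost without wild type replicate 2 or any 1 of the S34F libraries, with adjusted p-values from 0.0905 to 0.208, and in DESeq2 (adjusted p = 0.0905), limma (adjusted p = 0.166) and the newer dispersion estimate of edgeR (adjusted p = 0.0543). Counting multi-mapped reads too gave an adjusted p of 0.0667. An overhang of at least 20 nt gave 0.0809. Of 14 alternatives, 11 did not pass, and the range over all was 0.0147 to 0.208.

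The next exon upstream, of 126 nt from 21832079 to 21832204, was skipped more in S34F. Its skipping junction, from 21832286 to 21831053, is unannotated and received 4, 0 and 0 unique reads in wild type against 9, 8 and 34 in S34F. The junction into the exon received 166, 125 and 91, and 178, 65 and 211. Skipping was 0.57% ± 0.98 in wild type and 5.04% ± 1.9 in S34F, from 0% to 1.71% against 2.81% to 6.42%. Inclusion fell by 2.70 in log2 odds (SE 0.77, edgeR adjusted p = 0.0457), and the share of the skipping junction at its 5′ splice site rose by 3.27 (SE 0.77, edgeR adjusted p = 0.0157).

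The skipped form met the minimum of 10 reads only through the S34F libraries, where skipping is high, and the difference was under 10 percentage points in both tests. These p-values are therefore given beside the counts and support nothing further. The cassette adjusted p stayed below 0.05 without wild type replicate 1 (0.00654) and lay between 0.0639 and 0.214 without any other library, within 0.00654 to 0.214 over all alternatives. In acceptor usage the junction no longer passed without wild type replicate 2, S34F replicate 2 or S34F replicate 3, at adjusted p-values of 0.0685, 0.072 and 0.165. Multi-mapped reads at the skipping junction numbered 0, 2 and 1 in wild type against 9, 6 and 39 in S34F.

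Both exons have PI4KA counterparts of the same length. In PI4KA the 121-nt exon lies from 21065629 to 21065749, and its unannotated skipping junction received 10, 5 and 3 unique reads in wild type against 5, 4 and 5 in S34F. Skipping there was 12.3% ± 4.7 and 6.69% ± 3.4, with overlapping groups, and inclusion differed by 1.24 in log2 odds (SE 0.62, edgeR adjusted p = 0.227). The 126-nt exon lies from 21066774 to 21066899. Its skipping junction received 0, 1 and 0 unique reads in wild type against 0, 0 and 9 in S34F, so that 1 library held all the S34F reads, and inclusion differed by -1.98 in log2 odds (SE 1.3, edgeR adjusted p = 0.363). Whether the 2 genes differ in skipping was not tested.

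**Figure D4:**
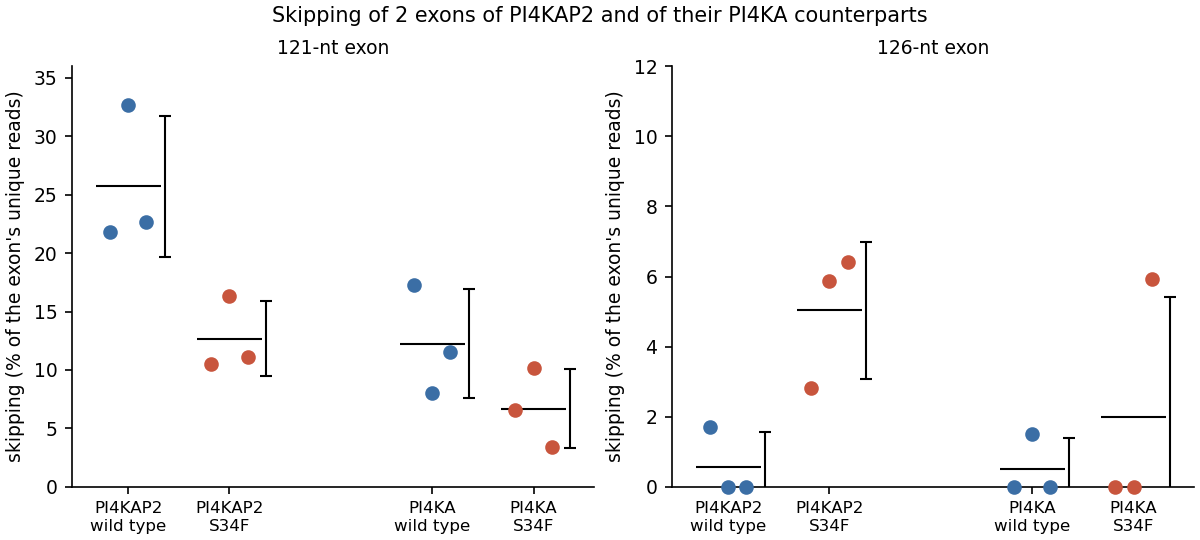
Skipping of the 121-nt and the 126-nt exon (y axis, % of the exon's unique reads, on a different scale in each panel) is plotted by library for PI4KAP2 and its PI4KA counterpart, in wild type (blue) and S34F (red). Horizontal bars are means and error bars are SDs (n = 3), cut at 0. In PI4KAP2 the groups do not overlap at either exon, with skipping of the first between 10.5% and 16.3% in S34F and between 21.8% and 32.6% in wild type.

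Unique reads were scarce in this stretch, where most reads mapped to more than 1 place. At the PI4KA intron from 21066774 to 21065749, 95.3% of the reads were multi-mapped, and at the matching PI4KAP2 intron 70.5% were. The 126-nt exon's skipping junction had the same multi-mapped counts in both genes in every library. The shares above are therefore those of the reads that could be placed, and the part of shared reads in them was not tested.

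Of the other splice sites, few passed. In acceptor usage 4.63% of all 51522 junctions passed an adjusted p under 0.05, and 2.11% were also 10 or more percentage points apart. Of 47 PI4KA junctions tested, 2 passed, both at the 5′ splice site described above, and 0 were called. Of 14 PI4KAP2 junctions, 5 passed and 1 was called, the skipping junction of the 121-nt exon, which fell by 1.27 in log2 odds (SE 0.38, edgeR adjusted p = 0.0492, and 0.0125 to 0.322 over the alternatives). The 5 belong to 3 of the 5′ splice sites, since the acceptors of a 5′ splice site mirror each other. The PI4KA acceptor at 21090879 and 3 of the 5 PI4KAP2 junctions reached 10 reads on their rarer side only through the group where that side is high. Their p-values support nothing further. This limit does not hold for the annotated PI4KA acceptor, the skipping junction of the 121-nt exon or the acceptor at 21841216. Whether these genes differ from others in the number of junctions that passed was not tested. DESeq2 passed 0 of the PI4KA and 2 of the PI4KAP2 junctions, beside 229 of all 51517 outside the chosen 5′ splice site. In limma 0 of both passed and 0 of all 51517, so that 0 says nothing particular to these genes. There 7 and 6 had an unadjusted p under 0.05, beside 9646 of all.

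Among competing acceptors 2 PI4KA and 4 PI4KAP2 pairs were tested beside the chosen one. The 2 pairs that passed were the PI4KA counterpart and the pair 48 nt apart, both tested only through the group with the higher share, and 0 were called. The other 4 had adjusted p-values of 0.792 to 0.968 in edgeR. One of these, the PI4KA acceptors at 21119524 and 21119451, had the upstream share at 99.4% ± 0.25 in wild type and 99.2% ± 0.28 in S34F.

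Donor usage asks which 5′ splice site an acceptor was joined to. Over all 48269 junctions tested, 2.04% passed and 0.934% were called. Of 48 PI4KA and 6 PI4KAP2 junctions, 0 passed in edgeR, with 7 and 4 at an unadjusted p under 0.05, beside 17.3% of all junctions. In DESeq2 or limma 0 passed, beside 325 and 0 of all 48265 not linked to the chosen 5′ splice site. The lowest adjusted p was 0.0605, for the junction from the 121-nt PI4KAP2 exon to 21830449. That junction took 74.9% ± 5.9 of the acceptor's reads in wild type and 88.0% ± 2.4 in S34F. The lowest in PI4KA was 0.0703, for an unannotated 5′ splice site at 21099373 that gave 4, 4 and 1 reads in wild type against 0, 0 and 1 in S34F.

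Of all 19272 cassette exons, 5.76% passed and 2.74% were called. The 6 PI4KAP2 exon forms tested gave 4 that passed and 3 that were called, which are the events above. Of 18 PI4KA exons 0 passed in edgeR, DESeq2 and limma, with 1, 0 and 1 at an unadjusted p under 0.05. In edgeR 23.9% of all cassette exons had such a p. Of all 19270 not linked to the chosen 5′ splice site, DESeq2 passed 526 and limma 0, with 3425 and 4342 at such a p. The lowest adjusted p in PI4KA, 0.145, belonged to the exon from 21082062 to 21082152. Its unannotated skipping junction received 7, 2 and 0 reads in wild type against 10, 8 and 36 in S34F.

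The other unannotated PI4KA junctions that were tested for usage did not pass. A 5′ splice site at 21119820, joined to the acceptor at 21119524, gave 6, 6 and 0 reads in wild type against 12, 8 and 41 in S34F. It took 1.94% or less of that acceptor's reads in each wild-type library and 2.80% or more in each S34F library (1.29% ± 1.1 and 3.47% ± 0.74), a log2 odds difference of 1.39 (SE 0.60, edgeR adjusted p = 0.228). A 5′ splice site at 21115641, joined to the acceptor at 21107468, took 7.47% ± 3.5 of that acceptor's reads in wild type and 9.41% ± 1.3 in S34F (log2 odds 0.41, SE 0.41, edgeR adjusted p = 0.676). A junction from 21101871 to 21097052, which skips 1 exon, received 14, 14 and 13 reads in wild type against 29, 11 and 68 in S34F, or 4.93% ± 0.82 and 6.29% ± 1.1 of its 5′ splice site. Over all PI4KA junctions 87 had a single unique read.

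The unannotated junctions together took 1.18% ± 0.23 of the unique reads of PI4KA in wild type and 1.39% ± 0.075 in S34F, and 0.62% ± 0.067 and 0.68% ± 0.11 of those of PI4KAP2 when the chosen 5′ splice site was left out. Neither difference passed a two-sided exact permutation test (p = 0.3 and p = 0.5, or 0.45 and 0.5 adjusted over the 6 gene-level comparisons). With 3 libraries against 3 that test cannot give a p below 0.1. Over all junctions of the series the share was 1.03% to 1.25% in wild type and 1.24% to 1.38% in S34F.

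The counterpart introns show how far the 2 genes can be told apart. PI4KA had 56 annotated introns with at least 60 reads and PI4KAP2 had 18, in both cases counting some alternatives. In the same order along the genes, 7 introns had the same length in both, and 14 agreed to within 12 nt. The 33 PI4KA introns before the first of these length-matched introns had a median of 0.585% multi-mapped reads. They include the 7674-nt intron of the pair 29 nt apart. From there on the median was 23.7% for 15 PI4KA introns, leaving out 8 that PI4KAP2 lacks (median 0.744%). For PI4KAP2 it was 58.6%. Within PI4KAP2 the multi-mapped share ran from 3.35%, at the 3017-nt intron from 21837309 to 21834291, to 94.9%, at the 701-nt intron from 21830291 to 21829589.

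PI4KAP2 lacks a run of PI4KA exons. Its annotated 2665-nt intron from 21841089 to 21838423 corresponds to a PI4KA stretch of 8 introns and 7 exons, from 21087259 to 21073110, whose introns had a median of 0.744% multi-mapped reads. An unannotated PI4KA junction of 14148 nt joins the same 2 outer exons directly. It received 11, 5 and 1 unique reads in wild type against 12, 1 and 14 in S34F, with overlapping groups. The PI4KAP2 intron received 633, 566 and 411, and 815, 369 and 1294.

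**Figure D5:**
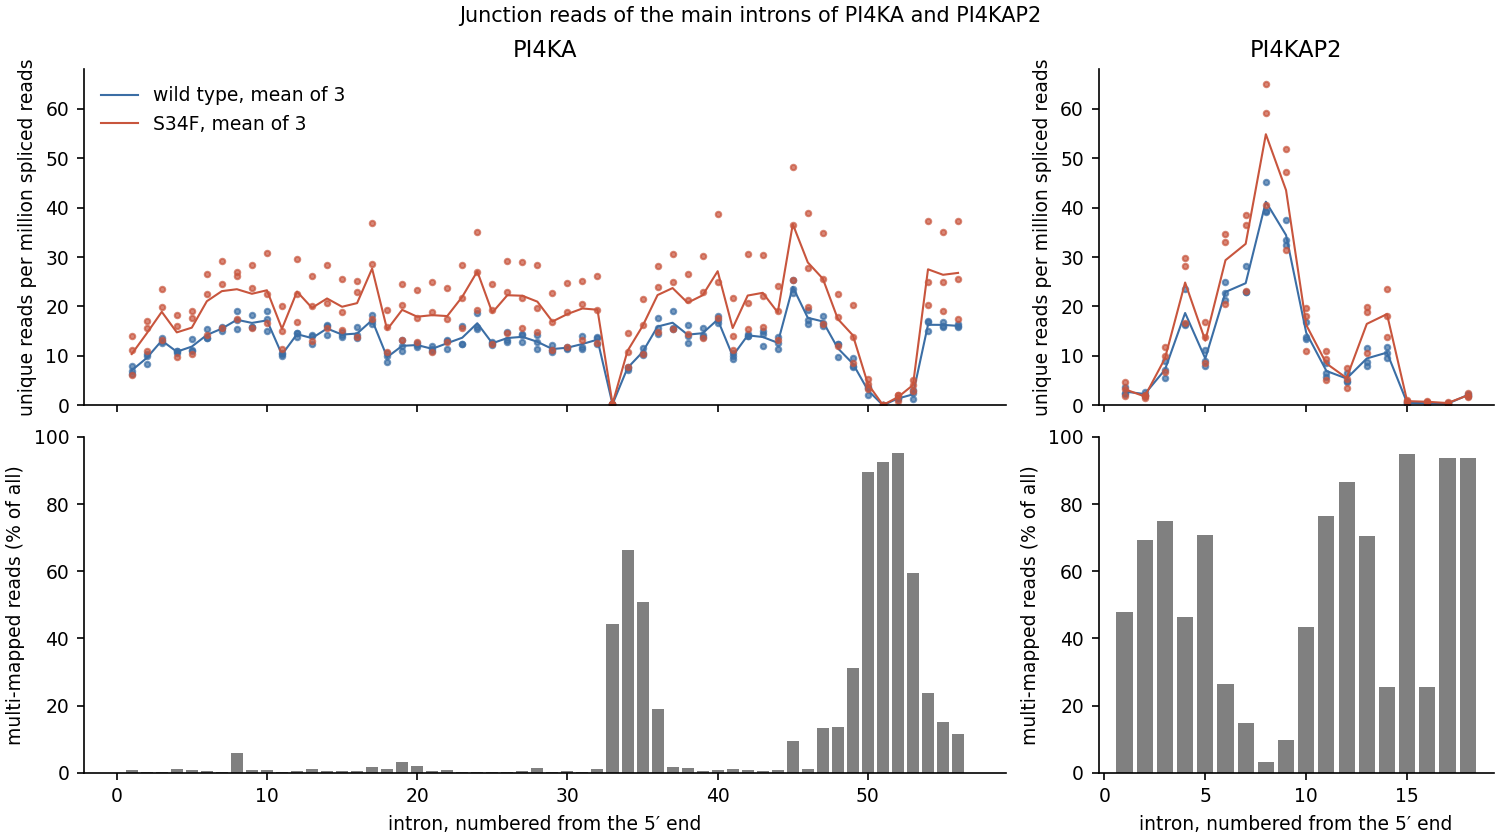
Unique reads per 1000000 unique spliced reads (upper panels) and the percent of reads that were multi-mapped over the 6 libraries (lower panels) are plotted for the annotated introns of PI4KA and PI4KAP2 in order from the 5′ end. Points are libraries and lines are means of 3 (wild type blue, S34F red). The multi-mapped percent is near 0 over most of PI4KA and reaches 95.3%, and the introns with the highest percent have few unique reads.

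Levels of the 2 genes are best set side by side where reads can be placed. At the introns of 3007 nt in PI4KA and 3017 nt in PI4KAP2, with 1.10% and 3.35% multi-mapped reads, PI4KA had 418, 482 and 336 unique reads in wild type against 654, 360 and 1529 in S34F. PI4KAP2 had 1148, 975 and 762, and 1387, 732 and 2551. The pseudogene thus had 2.75, 2.02 and 2.27 times the reads of the gene in wild type against 2.12, 2.03 and 1.67 times in S34F, at single junctions, which need no correction for length. The ratio depended on the intron: at the 914-nt introns, with 9.43% and 14.9% multi-mapped reads, it was 1.20, 0.905 and 1.00 in wild type against 1.06, 0.910 and 0.756 in S34F. At the other end of the genes, the PI4KAP2 introns of 701 and 530 nt had 0.01 to 0.039 times the unique reads of their PI4KA counterparts, with 94.9% and 93.8% of their reads multi-mapped, so that few of their reads could be placed.

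Summed over all junctions and scaled to 1000000 unique spliced reads per library, PI4KA received 694, 755 and 693 unique reads in wild type against 1091, 743 and 1419 in S34F. The means were 714 ± 35.8 and 1085 ± 338, a ratio of 1.52, and S34F replicate 2 lay below wild type replicate 2. The difference did not pass, at p = 0.2 in the exact permutation test and 0.45 after adjustment. PI4KAP2 received 253, 210 and 203 in wild type against 328, 206 and 342 in S34F, or 222 ± 27.0 and 292 ± 74.9 (exact permutation p = 0.3, adjusted p = 0.45). Without S34F replicate 2 the differences grew from 371 to 541 in PI4KA and from 69.8 to 113 in PI4KAP2, and without S34F replicate 3 they were 203 and 44.8. In bulk RNA a lower level per cell and fewer cells that express a gene cannot be told apart.

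At the level of single junctions the differences in PI4KA leaned one way. Of 64 PI4KA junctions tested, 63 had a log2 difference above 0 and the median was 0.56, against 0.011 over all 116446 junctions, of which 0.295% passed. In edgeR 0 passed, with 54 at an unadjusted p under 0.05, all higher in S34F, beside 13.9% of all junctions. In DESeq2 0 passed, with 52 at such a p, while of 116443 junctions 1471 passed and 12150 had such a p. Junctions of 1 gene share their transcripts and are not replicates. Without S34F replicate 3 the median was 0.37 and 19 had an unadjusted p under 0.05. Of 20 PI4KAP2 junctions 1 passed, the upstream acceptor of the pair 48 nt apart, and the median was 0.37.

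No difference in the share of multi-mapped reads passed. The share was 13.2% ± 1.3 in wild type and 13.9% ± 1.1 in S34F for PI4KA (exact permutation p = 0.5), and 49.1% ± 0.73 and 51.6% ± 2.3 for PI4KAP2 (exact permutation p = 0.3). Leaving out wild type replicate 1 moved the PI4KA difference from 0.67 to 1.38 percentage points, and leaving out S34F replicate 2 moved it to 0.051.

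Some other acceptor pairs of the genome had shares like those of the chosen PI4KAP2 pair. Likeness was measured over the 6 libraries among 5683 pairs, and the shares describe these libraries without a test. The closest in level, with a mean absolute difference of 8.68 percentage points, lies on the minus strand of chromosome 15, with both acceptors annotated and the upstream one, at 63967316, lying 24 nt before the other. Its upstream share was 27.5%, 29.8% and 34.6% in wild type against 51.0%, 63.3% and 51.5% in S34F. Next came pairs on chromosome 9 (upstream acceptor at 135985108, 36 nt apart) and chromosome 5 (88018742, 96 nt apart), at 11.4 and 11.7 percentage points.

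By Pearson correlation the most alike were pairs on chromosome 11 (85693046, 15 nt apart, r = 0.998), chromosome 12 (54678024, 18 nt apart, r = 0.989) and chromosome 20 (13773806, 20 nt apart, r = 0.989). The chromosome 11 pair had upstream shares of 65.6% to 68.7% in wild type and 86.0% to 89.1% in S34F. The chromosome 12 pair was like it in pattern only, with an upstream share of at most 0.075% in any library. With 6 points in 2 groups and so many pairs, a high r describes little more than a difference between the groups in the same direction.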

How the data were processed

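Each library had 1 deposited table of splice junctions from STAR, aligned to hg19 per the submitters' processing notes; the STAR version, annotation and filters are not given in the sources used here. The deposited values were raw counts of unique and of multi-mapped reads per junction, not normalized. Tables were joined on position, and an absent junction counted as 0. Members and lists were chosen with earlier results of these data known.

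For each event 2 counts per library were fitted in edgeR 4.0.16 (R 4.3.3; quasi-likelihood F-test, an intercept per library, count type and its interaction with S34F), over the whole table, with Benjamini-Hochberg adjustment. An event needed 20 reads per library and 10 on each side over the libraries. It passed at an adjusted p under 0.05, and was called if the shares also differed by 10 percentage points or more. Competing acceptors lay at most 100 nt apart, and cassette exons were at most 500 nt long. Junction levels were fitted with TMM on junctions kept by filterByExpr. The procedure was tested on simulated data. A fixed rule listed junctions for naming. It took annotated PI4KAP2 junctions averaging 20 reads, their PI4KA counterparts, called members and the PI4KA junctions with the largest differences in share. Not all junctions so listed are named above. The 12-nt tolerance was added after seeing the data. Alternatives used DESeq2 1.42.0 and limma 3.58.1; other steps used Python 3.11.15 with pandas 2.3.3, numpy 2.4.6 and scipy 1.17.1. Replicates differed by more than sampling noise (chi-square per junction 6.22 to 23.6), so none was merged. The K562 markers and the list of other PI4P pathway genes fixed for this work need an hg19 annotation and were not analysed here.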

Additional observations from a re-analysis of the deposited data

How the results depend on the processing

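The counts of members called were small, and most moved with the setting. In acceptor usage 1 member was called; counting multi-mapped reads too, an overhang of 20 nt, no minimum per library, DESeq2, limma and a minimum of 20 percentage points each gave 0, and no minimum difference gave 7. For cassette exons 3 were called; multi-mapped reads, the overhang, DESeq2, limma, the newer dispersion estimate and 20 percentage points each gave 0. For competing acceptors 0 were called, and no minimum difference gave 2. In junction level 1 passed; multi-mapped reads, DESeq2 and library size without TMM each gave 2, and no low-count filter gave 3. Leaving out 1 library at a time gave 0 to 2 in acceptor usage, 0 in competing acceptors, 0 to 2 in donor usage, 0 to 3 in cassette exons and 0 to 1 in junction level. Over all genes the acceptor usage calls went from 1088 to between 0 (limma) and 2386 (no minimum difference). None of the 14 member results that passed changed direction in an alternative that gave it a value. These are not 14 separate events, since many share junctions and so repeat the same difference. Several reached the minimum of reads only through the group where their rarer side is high. The alternatives also reuse the same libraries, so the constant direction lends no independent support. Deviations of same-numbered libraries of the 2 groups correlated at r = -0.163, -0.131 and -0.00481, against -0.167 to 0.235 between libraries of different numbers. Such values from 3 libraries per group cannot show whether the numbers pair them. With the replicate block 0 members were called in acceptor usage, 0 in cassette exons and 0 in junction level. In competing acceptors and donor usage it gave 0 as before. At the chosen pair the difference in upstream share, 37.5 percentage points over all acceptors of the 5′ splice site, ran from 35.0 to 40.3 with 1 library left out and was 42.0 over the 2 acceptors alone. Depth limits the acceptors with few unique reads and the introns where most reads were multi-mapped.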
